A study of Mus musculus with 4 samples.

Results

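The pro-apoptotic members of the BCL2 family were followed in mouse embryonic fibroblasts (MEFs) with and without p53. The group was made of 10 genes, Bax, Bak1, Bid, Bcl2l11, Bbc3, Pmaip1, Bad, Bmf, Bik and Hrk. Their spots were found by the gene name in the scanner files, which gave 11 spots for 11 probes among the 43020 spots that are not controls, or 10 genes of 31709. Bad had 2 probes and each other member had 1. The arrays were one-color Agilent mouse arrays, with 1 array for each of 4 conditions, and all were on 1 slide. The conditions were untreated WT (p53+/+) MEFs, WT MEFs with doxorubicin, untreated p53-/- MEFs and p53-/- MEFs with doxorubicin. Doxorubicin is an anthracycline that blocks topoisomerase II and breaks DNA. Its dose and time for the arrays, the passage of the cells and the number of embryos behind each culture were not given in the sources used here. No condition was repeated, so the values below carry no replicate error, and where an array sat on the slide cannot be told apart from its condition.

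The BCL2 family decides whether the outer membrane of mitochondria stays intact. Bax and Bak1 are the effectors, which form pores in that membrane and release cytochrome c, after which Apaf1 and caspases take the cell apart. The BH3-only proteins act upstream of them. Bid, Bcl2l11 (Bim) and Bbc3 (Puma) can bind the effectors directly as well as the anti-apoptotic proteins, whereas Pmaip1 (Noxa), Bad, Bmf, Bik and Hrk act mainly by occupying the anti-apoptotic proteins Bcl2, Bcl2l1 (Bcl-xL) and Mcl1. Bax, Bbc3 and Pmaip1 are textbook targets of the transcription factor p53, and Bcl2l11 and Bbc3 are also known targets of FOXO factors.

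Upstream sequences are shown for the members in whose windows a searched motif was found. The upstream windows come from RefSeq (GRCm38.p6) and were searched on both strands for the p53 half-site consensus, which is its own reverse complement, and for the FOXO motif GTAAACA. A window runs from 250 bases before to 50 bases after an annotated start. Windows were at hand for 8 members, 14 in all. The p53 half-site was found in 8.36% of 32851 windows of all genes and in 2 of the 14 windows of members, of Bax and of Bmf. The FOXO motif was found in 3.65% of all windows and in 2 of the 14, of Bcl2l11 and of Bbc3. These matches are descriptions of letters and not of binding. Capitals mark the match. The Bax window is shown up to its start (chr7:45466899-45467148, minus strand), the Bcl2l11 window up to its first start (chr2:128125788-128126037, plus strand), and 30 bases around the match are shown for Bbc3 (chr7:16310083-16310112, plus strand) and Bmf (chr2:118544781-118544810, minus strand).
Bax: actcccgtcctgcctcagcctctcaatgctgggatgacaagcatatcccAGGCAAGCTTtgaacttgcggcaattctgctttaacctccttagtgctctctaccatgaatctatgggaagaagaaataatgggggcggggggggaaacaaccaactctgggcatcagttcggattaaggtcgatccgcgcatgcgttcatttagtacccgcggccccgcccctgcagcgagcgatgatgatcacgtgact
Bmf: cccaagtgaaGGGCTTGCCTcttgccgaat
Bcl2l11: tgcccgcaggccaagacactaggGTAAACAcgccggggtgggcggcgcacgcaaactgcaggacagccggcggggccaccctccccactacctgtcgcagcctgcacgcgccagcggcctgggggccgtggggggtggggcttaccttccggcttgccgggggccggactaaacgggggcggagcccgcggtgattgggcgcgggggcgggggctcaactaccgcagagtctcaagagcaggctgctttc
Bbc3: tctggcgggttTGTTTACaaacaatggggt
Counted from the start, the match lay at −201 to −192 for Bax, at −213 to −204 for Bmf and at −227 to −221 for Bcl2l11. For Bbc3 it lay at −167 to −161, read on the other strand.

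The Bcl2l11 probe is shown because its signal carries the largest change of a member in p53-/- MEFs. The 60 bases of the probe map to chr2:127972893-127983988 (mm9, plus strand), a span of 11096 bases, so the probe crosses an intron. Capitals mark the codons of the conserved glycine and aspartate of the BH3 motif, bases 6 to 11, in a reading frame that is open over the whole probe.
Bcl2l11 probe: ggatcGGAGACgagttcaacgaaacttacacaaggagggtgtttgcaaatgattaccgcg
The BH3 motif is the stretch by which Bim grips its partners, and the probe holds only its later part and the coding sequence after it.

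Levels are given relative to each array's 75th percentile, which had a signal of 2074, 1819, 1881 and 2421 in the order of conditions above. A value of 1 is a signal equal to that percentile. Levels of different genes come from different probes and are not set against each other. Changes are log2 ratios of these levels, and a gene was called higher or lower at 2-fold. The error is the SD between repeat spots of probes of like brightness on the same arrays, which covers technical error within arrays only. Among 253 probes that were spotted 10 times and were well above background on all 4 arrays, the pooled SD was 0.08 for a log2 signal and 0.11 for a ratio. Of the 10 members, 8 were well above background on all 4 arrays, and Bik and Hrk on none. The genotype labels were checked first. Trp53 had levels of 0.592 and 1.89 in WT MEFs, untreated and treated, and of 0.235 and 0.224 in p53-/- MEFs, where the spot was still called well above background. The deleted part of Trp53 was not given in the sources used here, so its probe cannot settle the label. Mdm2, which p53 induces and whose product degrades p53, stood at 25.2 and 101 in WT MEFs and at 7.26 and 10.03 in p53-/- MEFs. Cdkn1a, the p53-induced inhibitor of cyclin-dependent kinases, stood at 13.8 and 58.3 in WT and at 0.519 and 2.44 in p53-/- MEFs. All 10 fibroblast markers, such as Col1a1 and Vim, were well above background on each array, and so were 5 to 7 of 8 leukocyte, 2 to 3 of 6 endothelial, 3 to 5 of 6 epithelial and 5 to 6 of 6 neuronal markers.

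**Figure D1:**
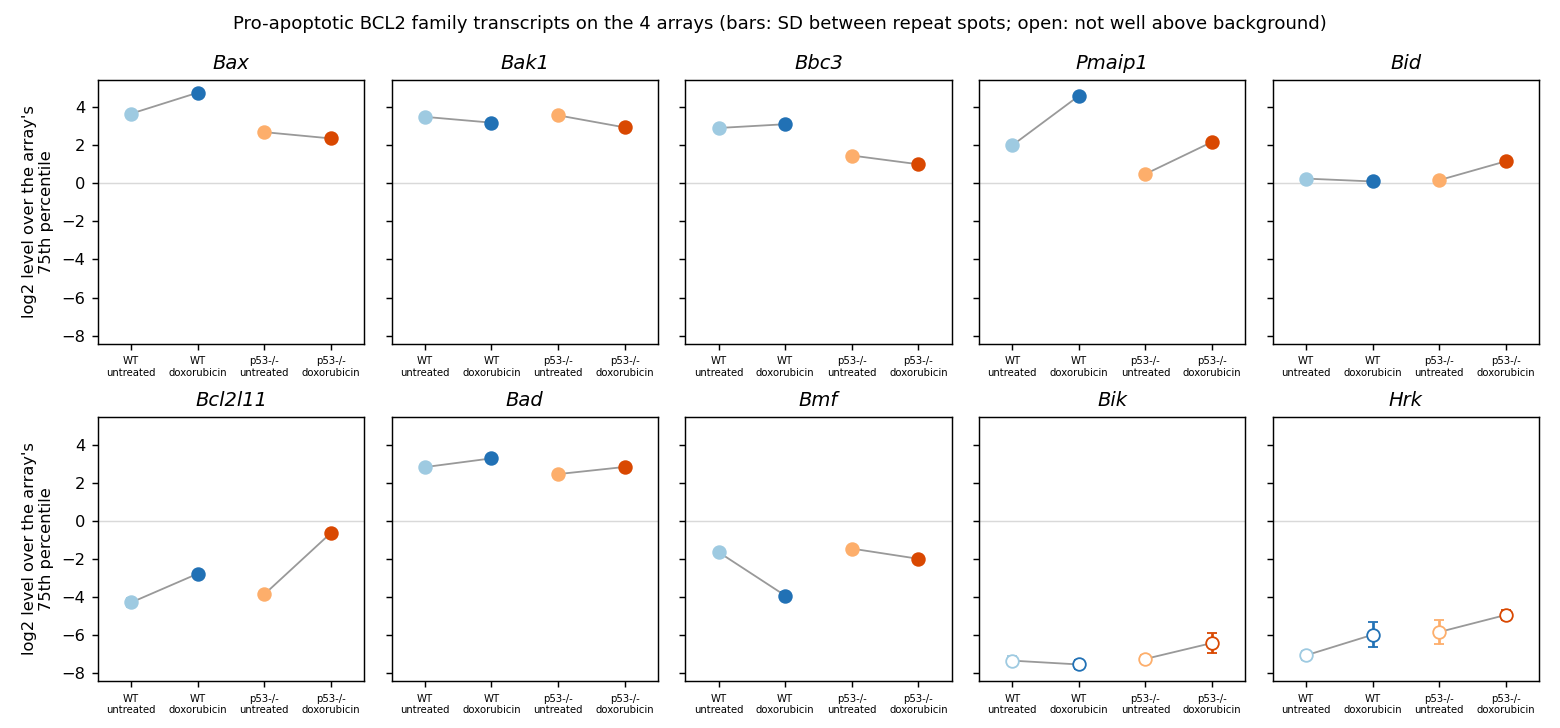
Log2 level over the array's 75th percentile (vertical axis) of each pro-apoptotic BCL2 family member on the 4 arrays, 1 point per array, with bars for the SD between repeat spots and open points where the spot was not well above background. Bax and Pmaip1 stand highest in WT MEFs with doxorubicin, Bmf is lowest there, and Bcl2l11 is highest in p53-/- MEFs with doxorubicin. Heights are comparable within a panel and not between panels.

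Among the effectors, Bax passed 2-fold with doxorubicin in WT MEFs and Bak1 did not. The Bax level was 12.7 in untreated and 27.3 in treated WT MEFs, and 6.48 and 5.15 in p53-/- MEFs. Bax thus stood highest in treated WT MEFs, and both p53-/- arrays were below both WT arrays. The rise in WT MEFs was 2.15-fold (log2 ratio 1.10, spot SD 0.07), whereas the log2 ratio in p53-/- MEFs was −0.33 (spot SD 0.07). Scaling to array medians in place of 75th percentiles put the WT ratio at 0.83, below 2-fold. It also lowered the median over all genes, to −0.27 for WT MEFs and −0.30 for p53-/- MEFs. Such scaling shifts all genes of an array alike, so the distance of Bax from that median could not change. Bax was 5.31-fold lower in p53-/- than in WT MEFs with doxorubicin (log2 ratio −2.41), a value under which only 1.78% of genes lay. Without doxorubicin the log2 ratio was −0.97, just short of 2-fold, and −1.02 with array medians. The Bax probe lies at chr7:52717122-52717181 (mm9).

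Bak1, the other effector, had levels of 11.3 and 9.16 in WT MEFs and of 11.96 and 7.71 in p53-/- MEFs. The 4 values span 1.55-fold from the lowest to the highest, and the treated cells were the lower in both genotypes. The log2 ratios with doxorubicin were −0.31 in WT and −0.63 in p53-/- MEFs, each with a spot SD of 0.07. Of all genes measured on the 4 arrays, 33.4% spanned a smaller range than Bak1, against 92.2% for Bax.

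Bid, Bcl2l11 and Bbc3, the BH3-only proteins that can engage the effectors directly, went different ways. Bid, a BH3-only protein that caspase-8 cuts into its active form, had levels of 1.19 and 1.07 in WT MEFs and of 1.12 and 2.24 in p53-/- MEFs. Treated p53-/- MEFs stood apart from the other 3 conditions, which lay close together. Bid had a log2 ratio of 0.99 with doxorubicin in p53-/- MEFs (spot SD 0.08), at the edge of 2-fold, and of −0.15 in WT MEFs. Array medians put the p53-/- ratio at 0.70 and quantile normalization at 1.01. With doxorubicin Bid was 2.08-fold higher in p53-/- than in WT MEFs (log2 ratio 1.06, or 0.99 with array medians).

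Bcl2l11, which encodes Bim, had a dim spot in 3 conditions and a bright one in treated p53-/- MEFs. The levels were 0.0508 and 0.145 in WT MEFs and 0.0685 and 0.642 in p53-/- MEFs. Bcl2l11 was 9.37-fold higher with doxorubicin in p53-/- MEFs (log2 ratio 3.23, spot SD 0.16) and 2.86-fold higher in WT MEFs (1.52, spot SD 0.25). With the normexp background correction these log2 ratios were 2.75 and 1.09, the latter just past 2-fold. Only 71 of 16953 genes had a higher ratio than Bcl2l11 in p53-/- MEFs. The untreated signals, 105 in WT and 129 in p53-/- MEFs, were called well above background, but the brightest of 153 negative control spots on those arrays reached 108 and 250.1. With a filter at the brightest negative control, neither doxorubicin ratio of Bcl2l11 was measured. The signals with doxorubicin, 264 and 1554, were 3.41 and 12.99 times that control, and Bcl2l11 was 4.42-fold higher in p53-/- than in WT MEFs on the treated arrays (log2 ratio 2.14, spot SD 0.14). That ratio was still measured with the filter, and was 1.88 with the normexp background correction.

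Bbc3, which encodes Puma, differed between the genotypes and little with doxorubicin. Its levels were 7.54 and 8.65 in WT MEFs and 2.76 and 2.01 in p53-/- MEFs. Both p53-/- arrays lay well below both WT arrays. Bbc3 was 2.73-fold lower in p53-/- MEFs without doxorubicin (log2 ratio −1.45, spot SD 0.07) and 4.31-fold lower with it (−2.11, spot SD 0.08). In untreated cells only 0.920% of 17286 genes had a lower ratio. The log2 ratio of Bbc3 with doxorubicin was 0.20 in WT MEFs, where its sign turned with array medians (−0.08), and −0.46 in p53-/- MEFs. The probe lies at chr7:16903403-16903462 (mm9).

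Pmaip1, which encodes the Mcl1-binding protein Noxa, rose with doxorubicin in both genotypes from unequal starting levels. The levels were 4.00 and 24.3 in WT MEFs and 1.41 and 4.53 in p53-/- MEFs. Treated p53-/- MEFs thus stood near untreated WT MEFs. The rise was 6.07-fold in WT (log2 ratio 2.60, spot SD 0.07) and 3.21-fold in p53-/- MEFs (1.68, spot SD 0.07). In p53-/- MEFs Pmaip1 was 2.84-fold lower without doxorubicin (log2 ratio −1.50) and 5.36-fold lower with it (−2.42). Over the 4 arrays its level spanned 17.2-fold, and 98.6% of genes spanned less.

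Bmf, a BH3-only protein that is held at the actin motor complex and is released when cells lose adhesion, was the only member that fell by 2-fold or more with doxorubicin. Its levels were 0.319 and 0.0655 in WT MEFs and 0.363 and 0.250 in p53-/- MEFs. Treated WT MEFs stood apart, and the other 3 arrays lay within 1.45-fold. The fall in WT MEFs was 4.87-fold (log2 ratio −2.28, spot SD 0.20) and only 1.62% of genes had a lower ratio. The p53-/- ratio was −0.54 (spot SD 0.12). The signal in treated WT MEFs, 119, was 1.54 times the brightest negative control, and with the normexp background correction the WT ratio was −1.64. With doxorubicin Bmf was 3.82-fold higher in p53-/- than in WT MEFs (log2 ratio 1.93, or 1.37 with normexp).

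Bad, whose product is kept from the mitochondria by phosphorylation and 14-3-3 proteins, changed by less than 2-fold in every comparison. The brighter probe, at chr19:7026323-7026382 (mm9), had levels of 7.07 and 9.72 in WT MEFs and of 5.48 and 7.11 in p53-/- MEFs. The dimmer probe, which maps to chr19:7016918-7017403 and so crosses an intron, had levels of 0.264 and 0.297 in WT and of 0.212 and 0.306 in p53-/- MEFs. Both probes were higher with doxorubicin in both genotypes, with log2 ratios of 0.46 and 0.17 in WT and of 0.38 and 0.53 in p53-/- MEFs. They differed in the comparison of the treated genotypes, where the log2 ratio was −0.45 by the brighter and 0.04 by the dimmer probe.

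Bik, a BH3-only protein of the endoplasmic reticulum, and Hrk, best known from neurons, had spots that were not well above background on any array. The Bik signals were 12.7, 9.66, 12.2 and 28.1 in the order of conditions above. For Hrk they were 15.3, 28.5, 32.6 and 78.1. All of them lay below the lowest signal called well above background on the same array, which was 56.7, 44.3, 57.9 and 87.1. No ratio is given for them, and a low transcript level could not be told apart from none.

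**Figure D2:**
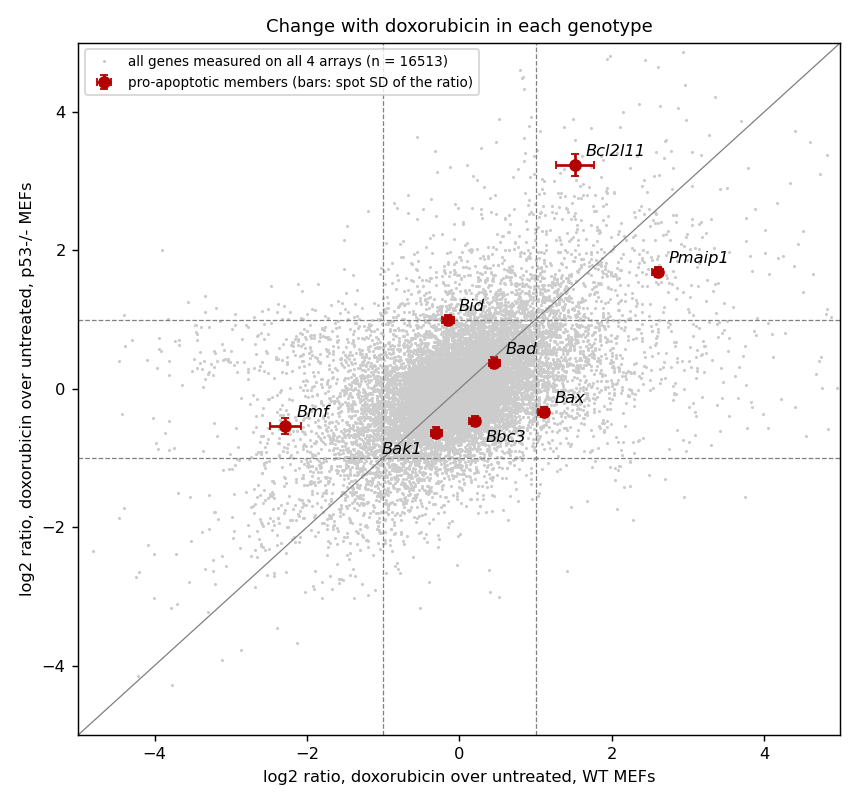
Log2 ratio with doxorubicin in WT MEFs (horizontal axis) and in p53-/- MEFs (vertical axis) for the 8 members measured on all 4 arrays (red, bars are the spot SD of the ratio) and for 16513 genes (grey, of which 25 lie outside the axes). Dashed lines mark 2-fold and the diagonal marks equal ratios. Bax and Bmf pass 2-fold in WT MEFs alone, Pmaip1 and Bcl2l11 in both genotypes.

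Counted over the members, the response to doxorubicin was mixed in direction. Of the 8 members measured in WT MEFs, 3 were at least 2-fold higher (Bax, Pmaip1 and Bcl2l11) and 1 was lower (Bmf), beside 11% and 10.4% of 17513 genes. In p53-/- MEFs, 2 of 8 were higher (Pmaip1 and Bcl2l11) and 0 were lower, beside 9.24% and 6.89% of 16953 genes. The median log2 ratio of the members was 0.33 in WT and 0.02 in p53-/- MEFs, and that of all genes was 0.01 and 0.00. With array medians, the calls over all genes turned from 1930 higher and 1828 lower to 1319 and 2792 in WT MEFs, and from 1567 and 1168 to 955 and 2098 in p53-/- MEFs. The 8 members were well above background on all 4 arrays, so the same 8 were counted in each comparison.

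The difference of the log2 ratios (WT minus p53-/-) put the members on both sides. Bax had a difference of 1.44 (spot SD 0.10), and Pmaip1 (0.92) and Bbc3 (0.66) were below 2-fold. Bmf (−1.75, spot SD 0.23), Bcl2l11 (−1.71, spot SD 0.30) and Bid (−1.14, spot SD 0.11) lay at the other end. Bak1 (0.33) and Bad (0.08 by its brighter probe) lay between. The dimmer Bad probe gave −0.36 (spot SD 0.16). Thus 1 of 8 members was at least 2-fold to the WT side and 3 were at least 2-fold to the p53-/- side, beside 8.37% and 9.86% of 16513 genes. The Bcl2l11 difference rests on untreated signals near the negative controls. With a filter at the brightest negative control it was not measured, and only Bid and Bmf stayed on the p53-/- side, beside 1256 of 14105 genes. With 1 array a condition, the difference between genotypes was not tested for any member.

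**Figure D3:**
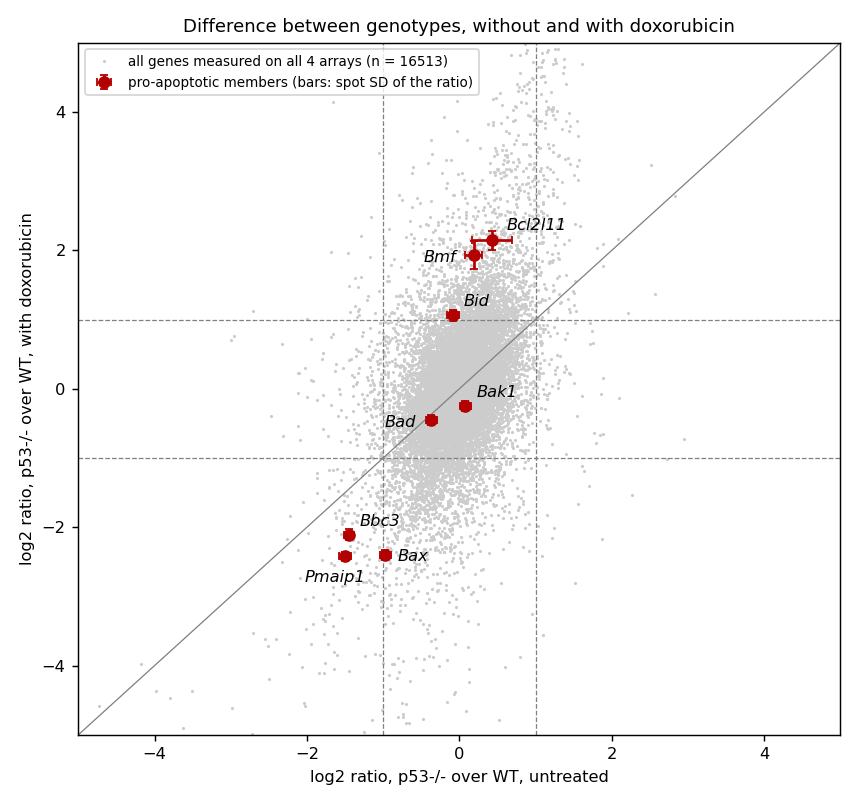
Log2 ratio of p53-/- over WT MEFs without doxorubicin (horizontal axis) and with doxorubicin (vertical axis), for the 8 measured members (red, bars are the spot SD of the ratio) and 16513 genes (grey, of which 51 lie outside the axes). Bax, Bbc3 and Pmaip1 lie at the lower left, with ratios from −0.97 to −1.50 without and from −2.11 to −2.42 with doxorubicin. Bid, Bcl2l11 and Bmf lie between −0.08 and 0.43 without and between 1.06 and 2.14 with doxorubicin.

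Between the genotypes, Bax, Bbc3 and Pmaip1 were the low ones in p53-/- MEFs. Without doxorubicin, 2 of 8 members were at least 2-fold lower in p53-/- MEFs (Bbc3 and Pmaip1) and 0 were higher, beside 2.61% and 2.15% of 17286 genes. With doxorubicin, 3 of 8 were lower (Bax, Bbc3 and Pmaip1) and 3 were higher (Bid, Bcl2l11 and Bmf), beside 10.3% and 11.9% of 17892 genes. These comparisons share arrays with the doxorubicin ratios, so they are other readings of the same 4 values and not further evidence. The median log2 ratio of the members was −0.23 without and −0.35 with doxorubicin, against 0.00 for all genes in both.

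By their profile over the 4 arrays, the members fell into different shapes. The distance here is the Euclidean distance between log2 levels, each centred on its own mean. Bax was nearest to Bbc3 (0.65) and Bak1 to Bad (0.95), whereas the nearest member to Bcl2l11, Bid, was 2.13 away. Pmaip1 and Bmf were the farthest pair (4.85). Among 16512 other genes measured on all 4 arrays, those nearest to Bax were Gm2115 (0.0893), Mst1r (0.114) and Castor1 (0.119). Those nearest to Pmaip1 were Fas (0.236), Rprm (0.419) and Pqlc3 (0.453). Fas, a death receptor, had a log2 ratio with doxorubicin of 2.40 in WT MEFs and of 1.86 in p53-/- MEFs.

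The anti-apoptotic members hold the others in check. Of 9 genes listed, 7 were on the array and 5 were measured on all 4 arrays. None of these 5 passed 2-fold with doxorubicin in either genotype, a count too small to set against the shares of all genes given above. Bcl2l1, which encodes Bcl-xL, came closest. Its levels were 14.8 and 28.4 in WT MEFs and 9.90 and 12.97 in p53-/- MEFs, with log2 ratios of 0.94 and 0.39. With doxorubicin it was 2.19-fold lower in p53-/- than in WT MEFs (log2 ratio −1.13). Mcl1, the main partner of Noxa, had levels of 14.5 and 21.6 in WT and 13.5 and 15.9 in p53-/- MEFs. Bcl2 had a log2 ratio of 0.42 in WT MEFs and of −0.57 in p53-/- MEFs. In the same order the ratios were 0.02 and 0.17 for Bcl2l2, and 0.08 and −0.29 for Bcl2a1d. The median difference of log2 ratios (WT minus p53-/-) over these 5 genes was 0.37, beside 0.21 over the pro-apoptotic members and 0.01 over all genes.

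**Figure D4:**
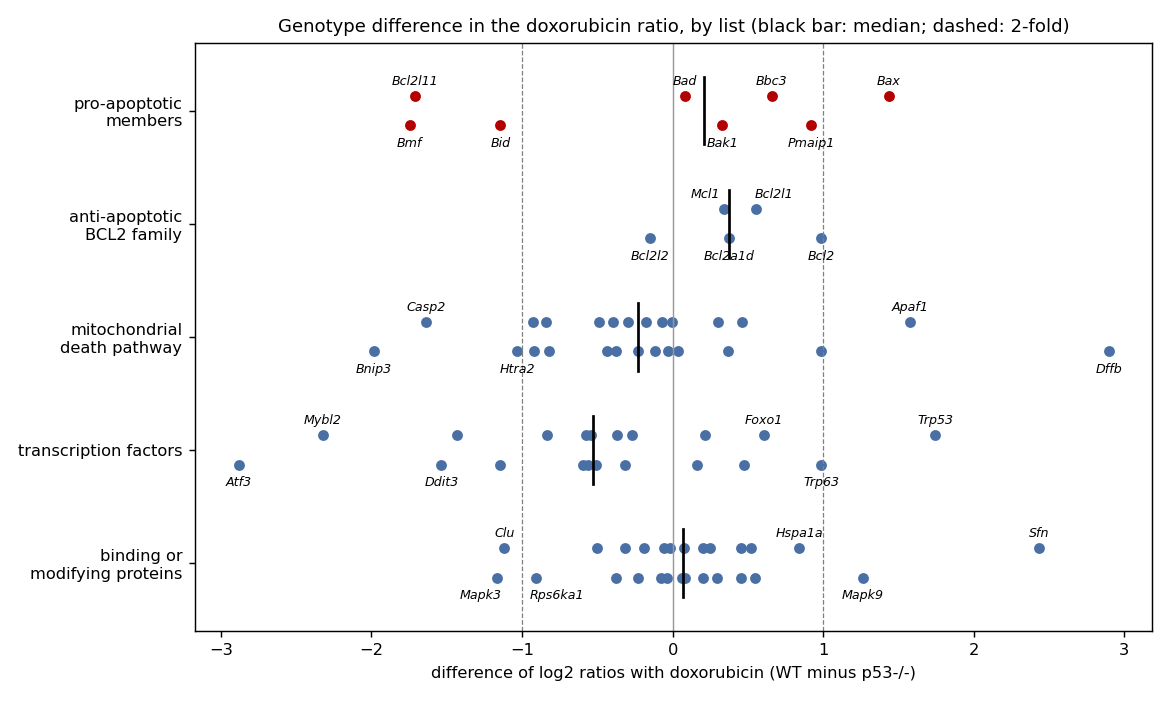
Difference of the log2 ratios with doxorubicin (WT minus p53-/-, horizontal axis) for the pro-apoptotic members (red) and for the genes of 4 related lists (blue), each point a gene measured on all 4 arrays, black bars the list medians, dashed lines 2-fold. The medians run from −0.53 for the transcription factors to 0.37 for the anti-apoptotic genes, and Dffb and Atf3 lie farthest out on either side.

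Of 26 genes listed for the mitochondrial death pathway, 25 were measured on both WT arrays. With doxorubicin 2 of these rose (Dffb among them) and 3 fell (Bok, Aifm1 and Bnip3) by 2-fold or more. The shares of all genes were 11% and 10.4%, so these counts were near them. Dffb, the nuclease that cuts DNA into ladders during apoptosis, had levels of 0.120 and 0.844 in WT MEFs and of 0.145 and 0.137 in p53-/- MEFs, which gave a rise of 7.06-fold in WT and a log2 ratio of −0.08 in p53-/- MEFs. Apaf1, the scaffold of the apoptosome, followed the genotype. Its levels were 1.14 and 1.42 in WT and 0.503 and 0.210 in p53-/- MEFs, where it fell 2.40-fold with doxorubicin and ended 6.79-fold below treated WT MEFs. Casp2 (difference of log2 ratios −1.64), the mitochondrial protease Htra2 (−1.03) and Bnip3 (−1.98), a BH3-containing mitophagy receptor, lay at the other end. In p53-/- MEFs 1 gene rose (Bnip3l) and 2 fell (Bok and Apaf1), beside 9.24% and 6.89% of all genes. The median log2 ratio of the list was −0.29 in WT and −0.04 in p53-/- MEFs, and that of all genes was 0.01 and 0.00.

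Of 22 transcription factors known to act on the members, 20 were measured in each comparison. In WT MEFs 2 rose by 2-fold or more with doxorubicin (Trp53 and Fos) and 4 fell (Atf4, Cebpb, Snai2 and Mybl2), with a median log2 ratio of −0.55. The shares of all genes were 11% and 10.4%, with a median of 0.01. In p53-/- MEFs 3 rose (Atf3, Jun and Fos) and 0 fell, with a median of −0.05. There the shares of all genes were 9.24% and 6.89%, with a median of 0.00. Atf3, a stress-induced factor, had levels of 0.637 and 0.380 in WT MEFs and of 0.603 and 2.65 in p53-/- MEFs, where it rose 4.40-fold. Mybl2, a cell cycle factor, fell 3.35-fold in WT MEFs and had a log2 ratio of 0.58 in p53-/- MEFs. Ddit3 (Chop), which induces Bim under stress of the endoplasmic reticulum, had a log2 ratio of −0.71 in WT MEFs and of 0.83 in p53-/- MEFs. The p53 relative Trp63 had ratios of 0.67 and −0.32, and Foxo1 of 0.37 and −0.23. Foxo3 and Foxo4 were not measured on all 4 arrays.

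Among 28 genes for proteins that bind or modify the members, 27 were on the array and 26 were measured. With doxorubicin in WT MEFs 2 rose by 2-fold or more (Sfn and Hspa1a) and 1 fell (Mapk3). In p53-/- MEFs 2 rose (Pim1 and Hspa1a) and 2 fell (Huwe1 among them). The shares of all genes were 11% and 10.4% in WT MEFs and 9.24% and 6.89% in p53-/- MEFs. The counts of this list lay near or below those shares. Sfn encodes 14-3-3 sigma, which binds Bax and Bad and is a known p53 target. Its levels were 0.264 and 2.16 in WT and 0.333 and 0.504 in p53-/- MEFs, and the rise in WT MEFs was 8.16-fold. Hspa1a, which encodes the chaperone Hsp70, rose 4.22-fold in WT and 2.36-fold in p53-/- MEFs. The kinase Mapk3, which marks Bim for degradation, fell 2.60-fold in WT MEFs and had a log2 ratio of −0.21 in p53-/- MEFs. Mapk9 (0.96 and −0.30), Clu (−0.15 and 0.97) and Rps6ka1 (−0.46 and 0.45) had log2 ratios of opposite sign in WT and p53-/- MEFs. Akt1, the kinase that phosphorylates Bad, had ratios of −0.02 and −0.32.

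Some markers of epithelial cells, of fibroblasts and of neurons also changed with doxorubicin. Of 6 epithelial markers, 3 were measured on all 4 arrays. Krt19 rose in both genotypes (log2 ratio 3.51 in WT MEFs, 2.91 in p53-/- MEFs), Krt18 had ratios of 0.91 and 1.91, and Krt8 of −0.46 and 0.32, whereas Epcam was not well above background on any array. The summed level of the 6, in which each probe has its own scale and Krt19 weighs most after treatment, was 7.37 and 30.3 in WT MEFs and 7.60 and 35.1 in p53-/- MEFs. Of 10 fibroblast markers, 3 fell by 2-fold or more in WT MEFs (Pdgfra, Pdgfrb and Dcn, log2 ratios −3.36, −2.44 and −1.30). In p53-/- MEFs 1 fell (Pdgfrb, −1.73), and 0 rose in either genotype. Their summed level ran from 579 to 862. Of all genes, 10.4% fell and 11% rose in WT MEFs, and 6.89% fell and 9.24% rose in p53-/- MEFs. The summed level ran from 14.7 to 20.0 for the 8 leukocyte, from 2.39 to 4.23 for the 6 endothelial and from 11.0 to 16.1 for the 6 neuronal markers. Their part in the ratios of the members was not tested. In bulk RNA, fewer cells of a type and less RNA per cell cannot be told apart.

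**Figure D5:**
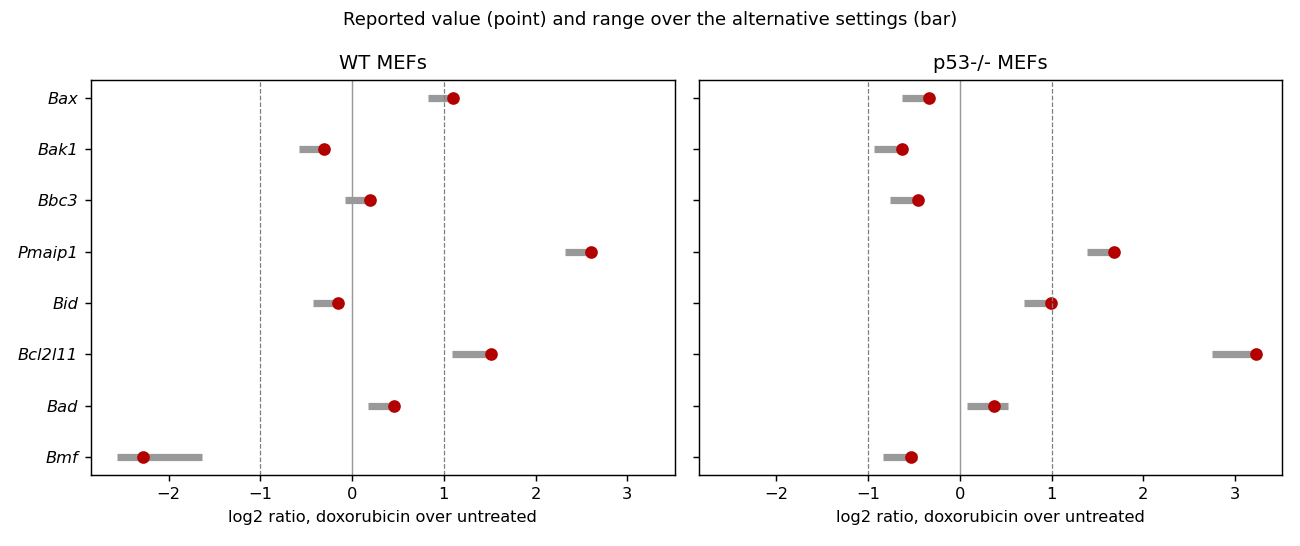
Log2 ratio with doxorubicin of each measured member in WT (left) and p53-/- MEFs (right), with the reported value as a point and a bar from the lowest to the highest value under the alternative settings of scaling, background correction, filter, probe and source. Dashed lines mark 2-fold. Bax in WT MEFs runs from 0.83 to 1.11 and Bid in p53-/- MEFs from 0.70 to 1.01, so both ranges hold 2-fold, whereas the ranges of Pmaip1 (2.33 to 2.61 in WT MEFs) and Bmf (−2.56 to −1.64 in WT MEFs) do not.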

How the data were processed

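For 4 conditions (WT or p53-/- MEFs, untreated or with doxorubicin), the authors labeled 200 ng of RNA per sample with Cy3 and hybridized it to Agilent mouse arrays, read with Feature Extraction 10.7.3.1. The deposited intensity of a spot (processed signal) had its background and spatial trend removed by that program and was not normalized between arrays. The deposited table of intensities equalled it in 177588 of 177588 values (within 0.01%). The deposited flags, 0 or 1, mark spots well above background (a score set by the program) and outliers. The deposited mean spot intensity and median local background were used for normexp only.

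Here, outlier spots (145 to 168 per array) were left out, repeat spots of 1 probe were averaged on the log2 scale, and each array's 75th percentile over 39429 probes was subtracted. For a gene with several probes, the one with the highest mean over the arrays was used. A ratio was measured where both spots were well above background (56.9% to 62.9% of probes per array), and a call needed 2-fold. With 1 array per condition no test was made and no p-value is given, and the number of arrays limits the precision. The SD between repeat spots came from the 30 repeat probes nearest in signal. Gene names came from RefSeq (26055 probes by accession, 3195 by symbol, 930 by synonym) or the files (9249). Probe positions are mm9, promoter windows GRCm38.p6. The members, lists and alternatives were chosen with earlier results of these data known. Named list genes were the 3 highest and 3 lowest differences of log2 ratios among genes measured on all 4 arrays, and for Bax and Pmaip1 the 3 nearest profiles. A few list genes enter the counts and medians and are not reported here by name. Fos, Bok, Aifm1, Bnip3l, Atf4, Cebpb, Snai2, Jun, Pim1, Huwe1, Akt1, Foxo3, Foxo4, Krt8, Krt18, Krt19, Pdgfra, Pdgfrb, Dcn, Syt1, Stmn2 and Map2 lie outside that rule and were named after their values were seen. The same holds for Col1a1, Vim, Epcam, Krt5 and Cdh1.

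Alternatives were array medians, the 75th percentile of probes well above background on all 4 arrays, quantile normalization, normexp (limma, offset 50), 3 other filters on dim probes, the mean or second brightest probe of a gene, the deposited table, and thresholds of 1.5-fold and 3-fold. The scaling and the WT ratio were tested on simulated arrays, with changes above the call threshold planted in probes well above background. That test did not cover dim spots, the filters or the difference of ratios. Python 3.11.15 with numpy 2.4.6, pandas 2.3.3 and matplotlib 3.10.9 and R 4.3.3 with limma 3.58.1 were used.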

Additional observations from a re-analysis of the deposited data

Results flagged for a closer look

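Of the members measured on all 4 arrays, 3 had log2 ratios with doxorubicin of opposite sign in the genotypes, each larger than its spot SD. The difference (WT minus p53-/-) was 1.44 for Bax (1.10 in WT and −0.33 in p53-/- MEFs), 0.66 for Bbc3 (0.20 and −0.46) and −1.14 for Bid (−0.15 and 0.99). None of these differences was tested, since each condition had 1 array. For Bbc3 the sign in WT MEFs turned with array medians (−0.08).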

How the results depend on the processing

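Of 396 log2 ratios of members under the alternative settings, 361 lay within the spot SD of the reported value. The other 35 moved by more, by at most 0.64, and 0 called values changed sign. Many of the 361 could not move. The filters on dim probes keep or drop a ratio without changing it, and the deposited table held the same intensities. The choice of probe could change only Bad, the member with 2 probes. Of 120 counts of members called, 112 were within 1.5 times the reported count. With no filter on dim probes all 10 members were counted. Then 1 member (Hrk) was higher in untreated p53-/- than WT MEFs, beside 1442 of 31703 genes. With doxorubicin 5 were higher in p53-/- than in WT MEFs (Bik and Hrk in addition), beside 3844 of 31709. With a filter at the brightest negative control, 1 member was higher with doxorubicin in p53-/- MEFs, as Bcl2l11 was no longer measured. The count over all genes was 875 of 14208. Without Bcl2l11 only Bax and Pmaip1 were higher with doxorubicin in WT MEFs, beside 1663 of 16267 genes. Likewise only Bid and Bmf were to the p53-/- side of the difference of ratios, beside 1256 of 14105. At 1.5-fold, 1 member was lower with doxorubicin in p53-/- MEFs (Bak1), beside 2687 of 16953 genes. At that threshold 3 were to the WT side of the difference of ratios, beside 3035 of 16513. At 3-fold, 1 was higher with doxorubicin in WT MEFs (Pmaip1), beside 888 of 17513 genes. Of the members 0 were lower in untreated p53-/- than WT MEFs and 0 were to the WT side. Over all genes these counts were 123 of 17286 and 523 of 16513.

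Scaling to the spike-in controls was not run, since 0 of 10 spike-in probes were well above background (5 to 17 of 320 spots per array). No paired analysis was possible because each condition had 1 array, and for the same reason no replicate was left out and slide was not a block. Signals near the negative controls limit Bcl2l11 without doxorubicin, Bmf in treated WT MEFs, and Bik and Hrk throughout.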
